A study of Mus musculus with 43 samples.

Results

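In the multi-organ CRISPR screen of this series, OT-I T cells recovered from the primary tumour were set against OT-I T cells recovered from the spleen, gene by gene, to ask which gene disruptions were represented differently in antigen-bearing tissue and in a lymphoid organ. The comparison used 12 of the 41 libraries with values, in a series of 43 samples. The 12 were chosen by the organ and treatment in their titles. A library titled as peritoneal metastases under anti-PD-1 carries the tissue label spleen and was left out. There were 3 libraries in each of 4 groups, namely primary tumour under IgG, primary tumour under anti-PD-1, spleen under IgG and spleen under anti-PD-1. All 12 came from OT-I Cas9 knockin CD8+ T cells. These bear a transgenic receptor for an ovalbumin peptide, and they carried a lentiviral sgRNA library against metabolic genes. The cells were selected for the CD90.1 marker, injected into mice with orthotopic KPC_OVA tumours, and sorted again 7 days after adoptive cell transfer (ACT). KPC_OVA is a mouse pancreatic ductal adenocarcinoma line that expresses ovalbumin. The recipient mice were Rosa26-Cas9 animals according to the methods, and anti-PD-1 or IgG was started on the day of transfer. Cells kept on that day, called T0, are given below for orientation only, with 3 libraries. The labels number the libraries as biological replicates without naming the mice or saying whether mice were pooled, so p-values measure the spread between these libraries. The paper's legend for the screen gives a far larger n per treatment than 3, over 3 independent sequencing experiments. How that n maps onto the libraries is not stated there. What was sequenced was the integrated sgRNA in genomic DNA, so that the organ labels could not be checked against the expression of marker genes.

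In a pooled screen each cell carries an sgRNA that marks the gene disrupted in it, and the signal of that sgRNA follows the number of cells that carry it. Cells that lose a gene needed for growth or survival become rare, whereas cells that lose a brake on growth become frequent. In the spleen, transferred T cells circulate through lymphoid tissue, whereas in the tumour they meet their antigen in a tissue known for competition over nutrients. Activated CD8+ T cells depend on glycolysis and on nucleotide synthesis to divide, and sialic acid and O-glycans on their surface affect adhesion, trafficking and clearance. An abundance measured in DNA does not separate entry into an organ, division and survival there.

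For every gene the value below is the mean of log2(signal + 1) over its 5 sgRNAs, centred on the median nontargeting sgRNA (250 in all) in that library. A value below 0 therefore means that sgRNAs against the gene had less signal than the median control sgRNA. The difference of a gene is the tumour value minus the spleen value on that scale, fitted with limma with the treatment as a covariate. A gene is called higher or lower in the tumour where its p-value, adjusted with the Benjamini-Hochberg method over all 2078 genes, is at most 0.05. The authors' methods state that differences between organs were corrected as batch effects before deposit. How much of a difference between tumour and spleen that step removed or left was not tested.

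The spleen libraries were more uneven than the tumour libraries. The share of sgRNAs at a lowest value that several libraries share, read here as not detected, was 3.52% ± 0.641 (SD, n = 6) in the tumour, from 2.78% to 4.24%. In the spleen it was 11.1% ± 7.31 (SD, n = 6), from 4.60% to 24.1%, and the organs did not overlap (two-sided exact permutation p = 0.00216, adjusted p = 0.00866 over 4 library measures). Nontargeting sgRNAs had an SD of 1.57 ± 0.0818 in the tumour and of 2.20 ± 0.525 in the spleen in log2 units (exact permutation p = 0.00649, adjusted p = 0.0130). The SD over genes (adjusted p = 0.190) and the share of signal in the highest 1% of sgRNAs (adjusted p = 0.127) did not pass the same exact test. The library of spleen anti-PD-1 replicate 2 stood apart, with 24.1% of sgRNAs not detected and a median gene value of -1.14 against -0.30 to -0.09 in the other 5 spleen libraries. Values without it are given beside some of the results below. Summed signal per library ranged from 1965083 to 3589586, and the read depth behind it is unknown.

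**Figure D1:**
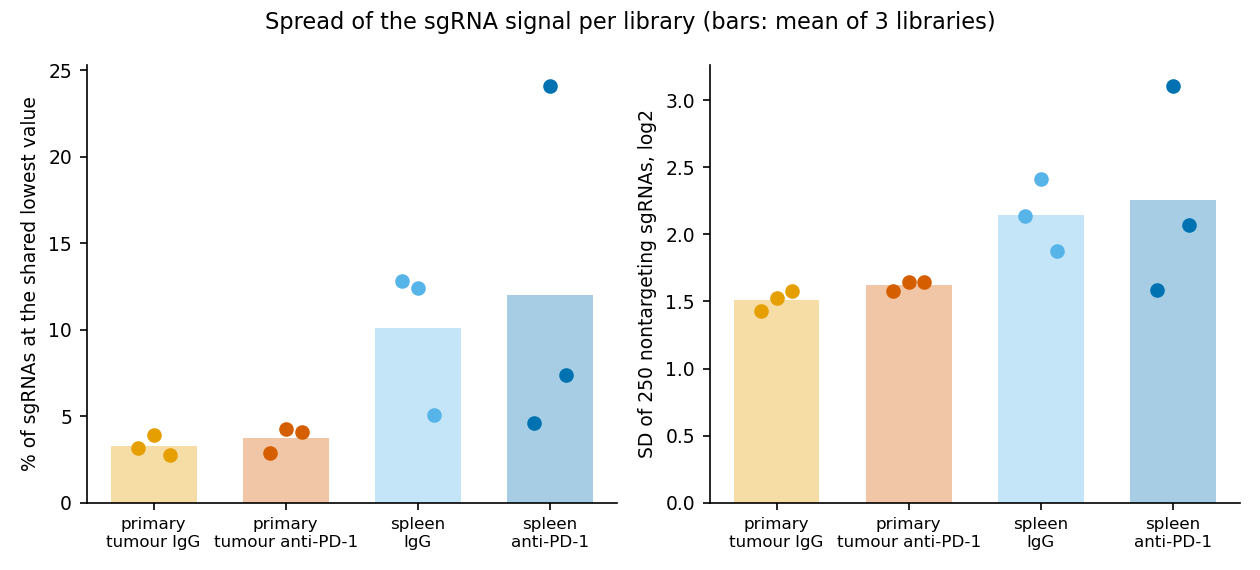
Left, the percentage of the 10640 sgRNAs at a shared lowest value in each of 12 libraries (points) and the mean of 3 libraries (bars). Right, the SD among the 250 nontargeting sgRNAs in log2 units, plotted the same way. The 6 tumour libraries lie at 2.78% to 4.24% on the left, and spleen anti-PD-1 replicate 2 is highest in both panels.

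Across the 2078 genes, 1 gene was higher in the primary tumour than in the spleen (0.0481%) and 4 were lower (0.192%). *Nans*, which makes the sialic acid precursor, was the gene that was higher. *Pgk1*, a glycolytic enzyme, *Cops4* and *Cops8*, subunits of the COP9 signalosome, and *Stt3a*, a catalytic subunit of the enzyme that transfers glycans to new proteins, were the genes that were lower. At an unadjusted p under 0.05 there were 127 genes higher (6.11%) and 31 lower (1.49%). The tumour libraries lay entirely above the spleen libraries for 9 genes (0.433%) and entirely below for 6 (0.289%). Most genes had a small difference above 0 (75.5% of them, median 0.27). The median was -0.04 with libraries centred on the nontargeting mean, 0.11 with log2(signal + 10), 0.06 with the median of the sgRNAs and 0.12 with weighted libraries. Under centring on the nontargeting mean, the split of genes at an unadjusted p under 0.05 was 43 higher and 105 lower, with 2 called higher and 8 called lower. Without spleen anti-PD-1 replicate 2 the median was 0.13, with 5 genes called higher and 12 called lower. With the peritoneal library whose tissue label is spleen added to the spleen, 0 genes were called higher and 0 lower. The replicate numbers paired tumour and spleen libraries within each treatment, and a fit on these pairs kept *Nans* and *Pgk1* and left the other 3 calls above the threshold.

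**Figure D2:**
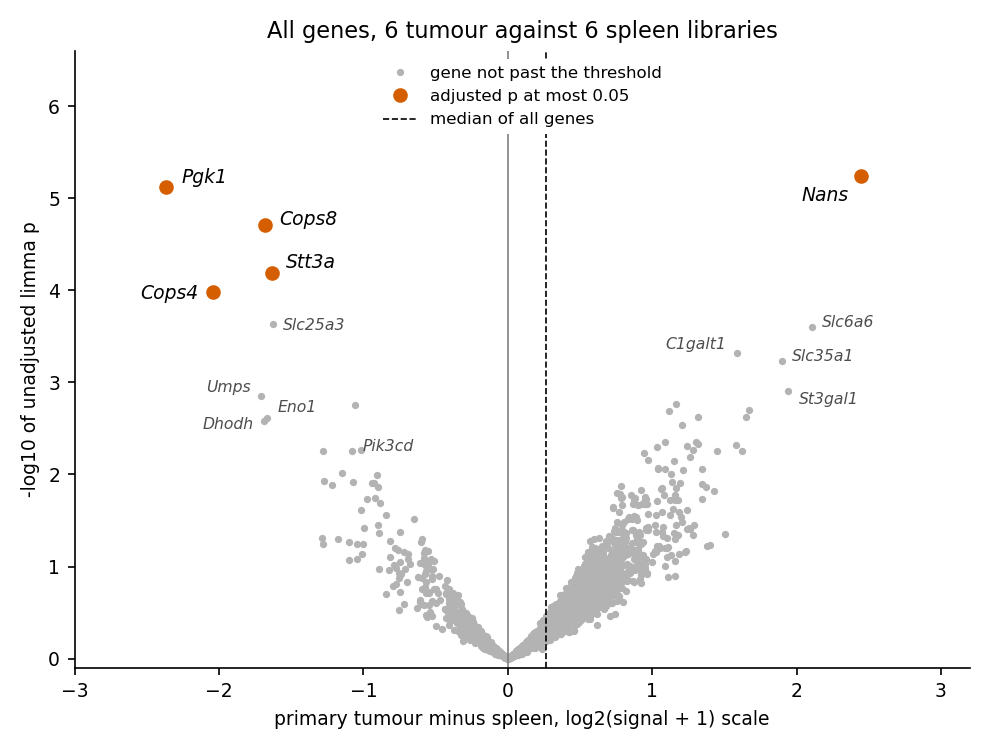
Each point is 1 of 2078 genes, with the tumour minus spleen difference on the horizontal axis and -log10 of the unadjusted limma p on the vertical axis, from 6 tumour and 6 spleen libraries. The 5 genes at an adjusted p of at most 0.05 are coloured, 4 of them to the left, and the dashed line marks the median of all genes, 0.27.

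*Nans* encodes N-acetylneuraminic acid synthase, the step that condenses a phosphorylated sugar with phosphoenolpyruvate on the way to sialic acid. Its gene value in the tumour libraries was -2.39 at the lowest, -1.60 at the median and -1.23 at the highest. In the spleen libraries it was -5.04, -4.20 and -2.98. The organs did not overlap, and the tumour was above the spleen in all 6 pairs of libraries. *Nans* was higher by 2.45 ± 0.37 (SE), with a limma adjusted p of 0.0079 and of 0.0094 with the pairs as a block. All 5 sgRNAs had a higher mean in the tumour, with differences of 1.40 to 4.01. The difference was 2.62 under IgG and 2.28 under anti-PD-1. Relative to T0, whose gene value averaged 0.47, *Nans* was at -2.15 in the tumour and at -4.60 in the spleen, so its sgRNAs were scarcer than at transfer in both organs. Of the 30 values per organ, 11 in the spleen and 0 in the tumour were at the shared lowest value. Spleen anti-PD-1 replicate 1 and spleen IgG replicate 3, with 4.60% and 5.06% of all sgRNAs undetected, had *Nans* values of -3.36 and -2.98. Without spleen anti-PD-1 replicate 2 the difference was 2.40 (adjusted p = 0.0065). The call was lost with the median of the sgRNAs in place of their mean (difference 3.04, adjusted p = 0.338) and with the lowest sgRNAs left out (2.68, adjusted p = 0.0682).

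**Figure D3:**
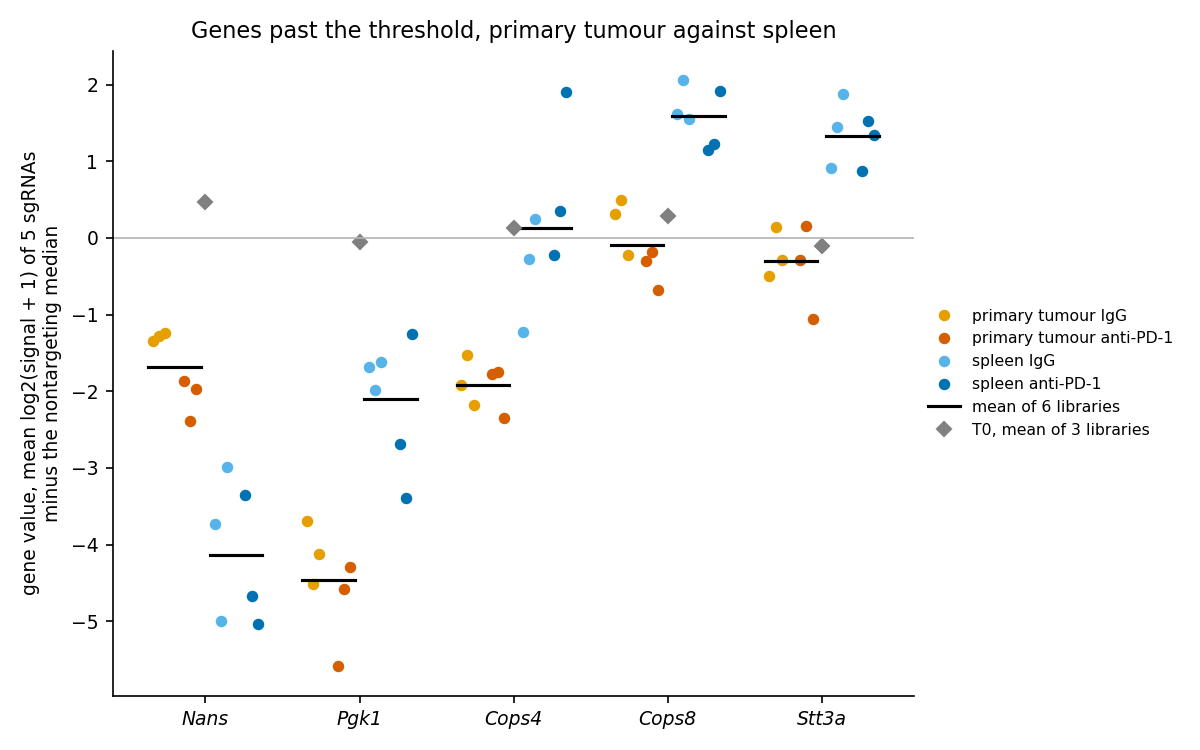
Gene values (vertical axis, log2(signal + 1) of 5 sgRNAs minus the nontargeting median) of the 5 called genes in 12 libraries, coloured by group, with the mean of 6 libraries per organ as a bar and the T0 mean as a diamond. For *Nans* every tumour library lies above every spleen library, and for *Pgk1*, *Cops4*, *Cops8* and *Stt3a* every tumour library lies below.

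The neighbours of *Nans* in the route from sialic acid to the sialylated core 1 O-glycan were looked at after its value had been seen, so they are described without a test of the group. The library holds 8 genes of it. *Gne*, *Nans*, *Nanp* and *Cmas* make and activate sialic acid, *Slc35a1* carries the activated form into the Golgi, *C1galt1* and its chaperone *C1galt1c1* build the core 1 glycan, and *St3gal1* adds sialic acid to it. All 8 had a difference above 0, with a median of 1.60 against 0.27 over all genes, and 5 of 8 were higher at an unadjusted p under 0.05. Over all genes 75.5% were above 0 and 6.11% were higher at that p. *Nans* itself is counted among the 8. Counts from a list drawn up on these values cannot serve as support for the route. The median of the 8 was 1.43 without spleen anti-PD-1 replicate 2 and 1.30 with centring on the nontargeting mean. *Nans* was the only gene of the 8 past the threshold. In these genes 87 of 240 spleen values and 11 of 240 tumour values were at the shared lowest value, against 6969 and 2230 of 62340 over all genes. Over 13 alternative settings that left out no library, the difference of *Nans* was 1.35 to 3.04, lowest with log2(signal + 10). That of *Slc35a1* was 0.51 to 2.76, of *St3gal1* 1.03 to 2.21, of *C1galt1* 0.70 to 1.87 and of *C1galt1c1* 0.56 to 2.26. The part of undetected sgRNAs in these differences was not tested.

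*St3gal1*, a sialyltransferase, had a gene value of -2.93 to -0.79 (median -1.83) in the tumour and of -5.46 to -2.47 (median -3.51) in the spleen. The organs overlapped, and the difference of 1.94 ± 0.50 (SE) had a limma adjusted p of 0.258. *Slc35a1*, the CMP-sialic acid transporter, lay between -4.83 and -2.55 in the tumour and between -6.47 and -3.88 in the spleen. Its difference was 1.90 ± 0.45 (SE, adjusted p = 0.137), with 5 of 5 sgRNAs higher in the tumour and 6 of 6 pairs. The difference was 2.73 under IgG and 1.06 under anti-PD-1, and the dependence on treatment did not pass the test (limma adjusted p = 0.986). *C1galt1*, the core 1 synthase, ranged from -2.35 to -1.36 in the tumour and from -4.70 to -2.35 in the spleen. The organs overlapped by a narrow margin, and the difference was 1.59 ± 0.37 (SE, adjusted p = 0.125). *C1galt1c1* had a difference of 1.62 ± 0.51 (SE, adjusted p = 0.366). Without spleen anti-PD-1 replicate 2, *Slc35a1* (2.03, adjusted p = 0.0430) and *C1galt1* (1.63, adjusted p = 0.0450) passed the threshold, whereas *St3gal1* (adjusted p = 0.147) and *C1galt1c1* (adjusted p = 0.416) did not. *C1galt1* also passed without spleen anti-PD-1 replicate 1 (1.83, adjusted p = 0.0312), and *Slc35a1* with library weights (1.88, adjusted p = 0.0181). Other settings gave smaller differences. With log2(signal + 10) they were 0.68 for *Slc35a1* (limma adjusted p = 0.612) and 0.70 for *C1galt1* (adjusted p = 0.512). With the lowest 10% of sgRNAs left out they were 0.51 (adjusted p = 0.860) and 1.20 (adjusted p = 0.530).

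The early steps had smaller differences. *Gne*, which starts sialic acid synthesis, was low in both organs, with means of -4.46 in the tumour and -5.28 in the spleen (difference 0.82, adjusted p = 0.608). *Cmas*, which activates sialic acid, had means of -2.57 and -3.34 (difference 0.78, adjusted p = 0.627). *Nanp*, the phosphatase between *Nans* and *Cmas*, stayed near the controls in both organs, with means of 0.02 and -0.45 (difference 0.47, adjusted p = 0.639). In the whole list of 42 O-glycan and sialylation genes, 1 was called higher and 0 lower, and 5 were higher (11.9%) and 0 lower at an unadjusted p under 0.05, against 6.11% and 1.49% of all genes. All 5 of these belong to the route above, which was drawn up after values had been seen, so this overlap is no separate result. The median of the list was 0.42.

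**Figure D4:**
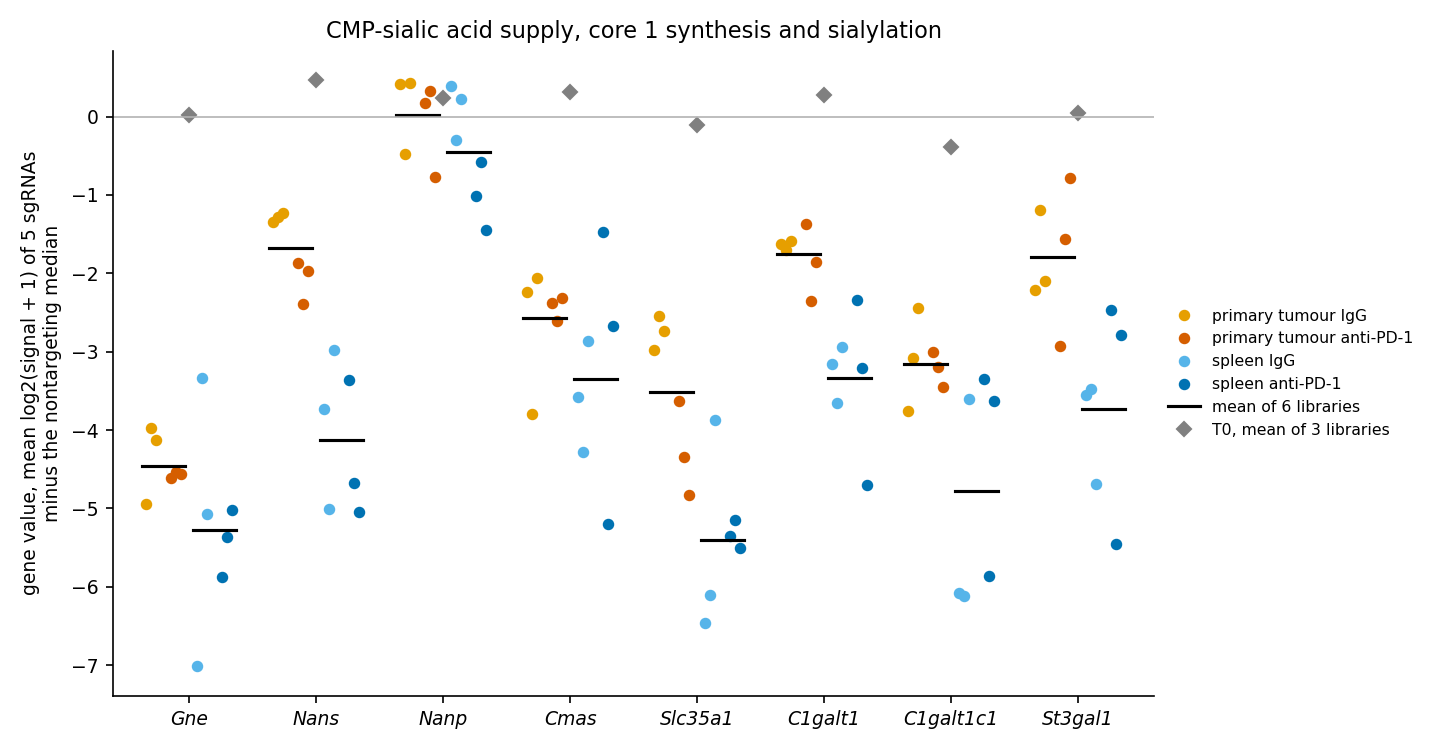
Gene values (log2(signal + 1) of 5 sgRNAs minus the nontargeting median) of 8 genes of CMP-sialic acid supply and core 1 O-glycan synthesis in 12 libraries, coloured by group, with the mean of 6 libraries per organ (bars) and the T0 mean (diamonds). The tumour mean lies above the spleen mean for each of the 8 genes, by 0.47 for *Nanp* and up to 2.45 for *Nans*.

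*Pgk1* encodes phosphoglycerate kinase, the first step of glycolysis that yields ATP. Its gene value in the tumour was -5.59 at the lowest, -4.40 at the median and -3.69 at the highest. In the spleen it was -3.39, -1.83 and -1.25, so that every tumour library lay below every spleen library. *Pgk1* was lower in the tumour by 2.36 (difference -2.36 ± 0.37 SE), with a limma adjusted p of 0.0079 and of 0.0094 with the pairs as a block. The difference was -2.35 under IgG and -2.38 under anti-PD-1. Of its 5 sgRNAs, 4 were lower in the tumour, by -4.90 to -1.21, and the fifth was at 0.41 with 2 undetected values in the tumour and 3 in the spleen. Against T0, *Pgk1* was at -4.41 in the tumour and at -2.04 in the spleen. Without spleen anti-PD-1 replicate 2 its difference was -2.57 (adjusted p = 0.0015), and it passed the threshold in each of the 12 fits with 1 library left out, as *Nans* did.

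In the list of 30 glycolytic enzymes and transporters, 0 genes were called higher and *Pgk1* alone was called lower. At an unadjusted p under 0.05, 2 were higher and 3 lower, against 6.11% and 1.49% of all genes. *Eno1*, the main enolase, ranged from -4.49 to -1.87 in the tumour and from -2.60 to -0.63 in the spleen. Its difference was -1.66 ± 0.47 (SE, limma adjusted p = 0.284), and the tumour was lower in all 6 pairs. Of 13 alternative settings that left out no library, *Eno1* passed the threshold in 1, log2(signal + 10) (-1.36, limma adjusted p = 0.0429). *Aldoa*, an aldolase, had means of -6.27 and -5.05 (difference -1.22, adjusted p = 0.504), with 16 and 15 of 30 values undetected, which leaves little room below. *Pkm* (-1.17), *Gapdh* (-1.10) and *Ldha* (-1.01), the enzymes of pyruvate formation, triose oxidation and lactate formation, had adjusted p-values of 0.598 each. *Pgam1* (-0.56) and *Tpi1* (-0.29) were nearer to 0. *Gpi1*, at the start of the pathway, had a difference of 0.57, and *Eno2* (1.13) and *Eno3* (0.93), the enolases typical of neurons and muscle, were the 2 with a p under 0.05 in the other direction. Of the 30 members 21 were above 0, near the 75.5% of all genes, and the median of the list was 0.24 against 0.27 over all genes.

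Pyrimidine synthesis had the lowest median of the 37 lists, at -1.28 over 5 genes, although none passed the threshold. *Umps*, which makes UMP, had a gene value of -3.21 to -1.63 (median -2.56) in the tumour and of -2.52 to 0.54 (median -0.73) in the spleen. The organs overlapped, and the difference was -1.71 ± 0.45 (SE, limma adjusted p = 0.269), with the tumour lower in 6 of 6 pairs. *Dhodh*, the mitochondrial enzyme of the preceding step, ranged from -3.82 to -1.90 in the tumour and from -3.46 to 0.50 in the spleen (difference -1.69 ± 0.48 SE, adjusted p = 0.285). *Ctps*, which makes CTP, had a difference of -1.28 ± 0.40 (SE, adjusted p = 0.366), and all 5 of its sgRNAs were lower in the tumour. *Cad*, which catalyses the opening steps, had a difference of -0.75 ± 0.70 (SE, adjusted p = 0.731), and *Ctps2*, a second CTP synthase, one of 0.23. These calls depended on the setting and on 1 library. With all 12 libraries, *Umps* passed the threshold with log2(signal + 10), with centring on the nontargeting mean and with library weights (adjusted p = 0.0287, 0.0290 and 0.0196). *Dhodh* passed it under the same settings (adjusted p = 0.0408, 0.0281 and 0.0181) and with the median of its sgRNAs (adjusted p = 0.0272). Spleen anti-PD-1 replicate 2 had the lowest spleen value for *Umps* (-2.52), *Dhodh* (-3.46), *Ctps* (-2.96) and *Cad* (-5.25). Without it the limma adjusted p was 0.0300 for *Umps* (-1.97), 0.0065 for *Dhodh* (-2.13), 0.0430 for *Ctps* (-1.56) and 0.0430 for *Cad* (-1.58), and the list median was -1.58. Relative to T0 the list medians were -2.91 in the tumour and -1.25 in the spleen. Purine synthesis, with 15 genes, had 0 genes called, a median difference of 0.02 and T0 differences of -4.24 and -4.53.

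**Figure D5:**
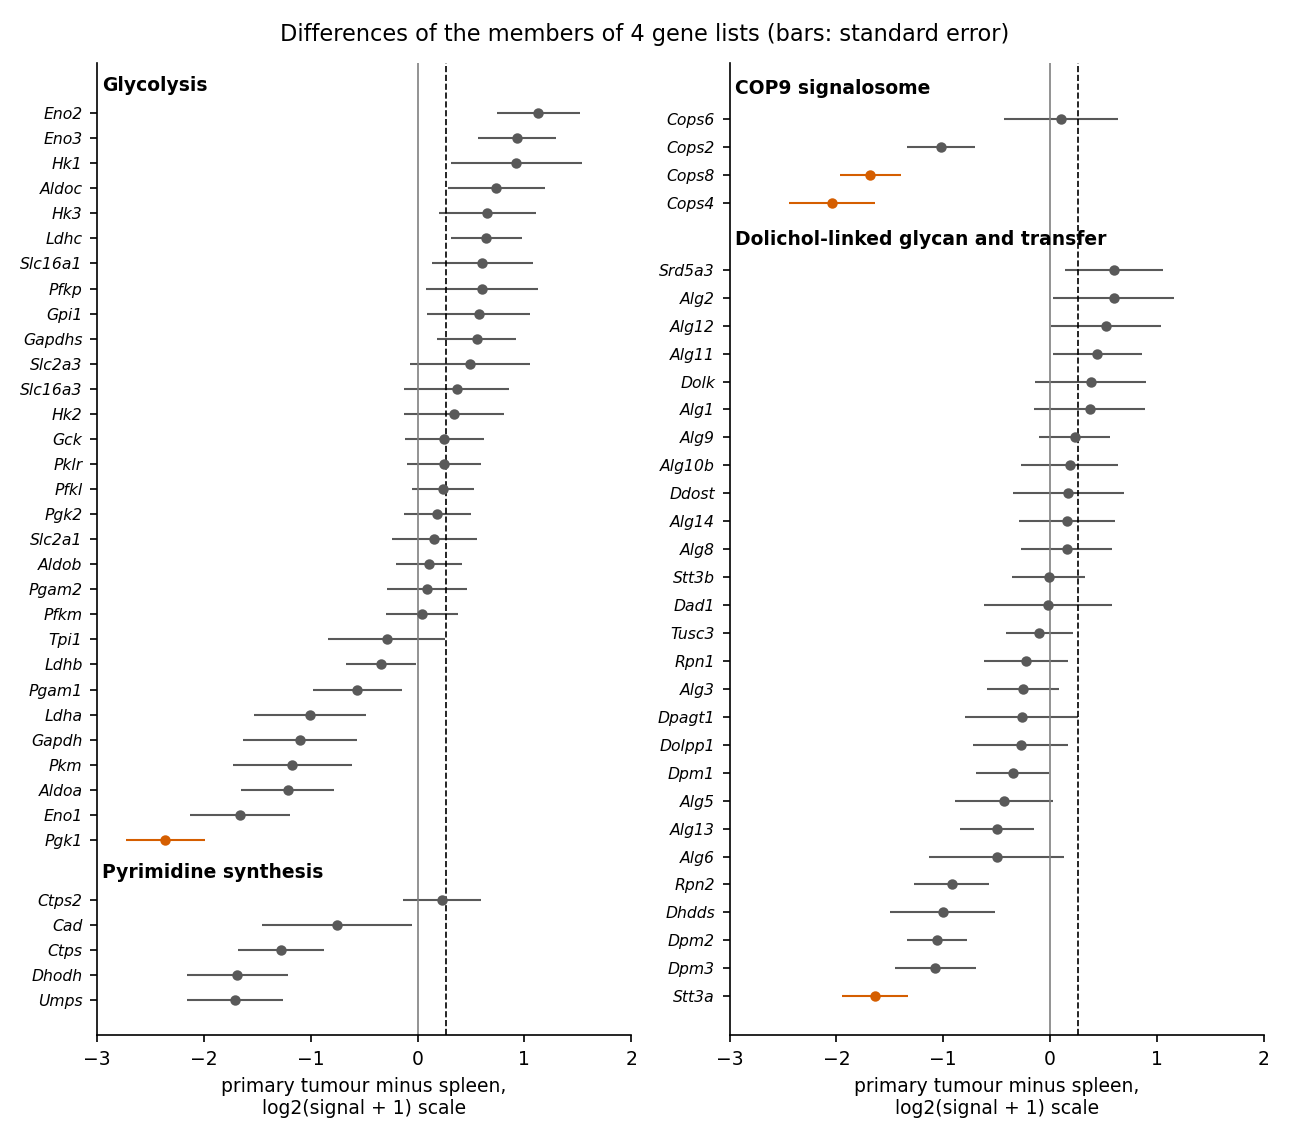
Tumour minus spleen differences (horizontal axis, log2(signal + 1) scale, bars are standard errors) for every member of 4 gene lists, with called genes coloured and the median of all genes, 0.27, as a dashed line. *Pgk1*, *Cops4*, *Cops8* and *Stt3a* are coloured, and 4 of the 5 pyrimidine genes lie left of 0.

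*Cops4* and *Cops8* are subunits of the COP9 signalosome, which removes the NEDD8 modifier from cullin ubiquitin ligases. *Cops4* ranged from -2.34 to -1.52 (median -1.84) in the tumour and from -1.23 to 1.91 (median 0.01) in the spleen, without overlap. It was lower by 2.04 in the tumour (difference -2.04 ± 0.40 SE, limma adjusted p = 0.0438), with all 5 sgRNAs in that direction. With the pairs as a block its adjusted p was 0.130, and with 1 library left out it passed the threshold in 3 of 12 fits, those without spleen IgG replicate 1 or spleen anti-PD-1 replicate 1 or 2. *Cops8* ranged from -0.68 to 0.50 (median -0.20) in the tumour and from 1.15 to 2.06 (median 1.59) in the spleen. It was lower by 1.68 in the tumour (difference -1.68 ± 0.29 SE, adjusted p = 0.0137), or with the pairs as a block at an adjusted p of 0.0652, and with 1 library left out it passed in 9 of 12 fits, all but those without tumour IgG replicate 3 or tumour anti-PD-1 replicate 1 or 3. These subunits differed in level from each other. *Cops4* stood at T0 in the spleen (difference from T0 of -0.0027) and at -2.05 from T0 in the tumour, whereas *Cops8* was at 1.30 from T0 in the spleen and at -0.38 in the tumour.

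The library holds 4 COP9 genes, a list drawn up after these values were seen. *Cops2* had a difference of -1.02 ± 0.32 (SE, limma adjusted p = 0.366). *Cops6* had one of 0.10 ± 0.53 (SE, adjusted p = 0.954), which turned negative under several settings, and it was low in both organs with means of -3.29 and -3.40. The 10 proteasome subunits of the library had 0 genes called and a median difference of 0.15.

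*Stt3a* encodes the catalytic subunit of the oligosaccharyltransferase that acts during protein translocation into the endoplasmic reticulum. Its gene value in the tumour was -1.06 at the lowest, -0.29 at the median and 0.16 at the highest. In the spleen it was 0.87, 1.40 and 1.88, without overlap. *Stt3a* was lower by 1.64 in the tumour (difference -1.64 ± 0.31 SE, limma adjusted p = 0.0335), with all 5 sgRNAs and all 6 pairs in that direction. The adjusted p was 0.0712 with the pairs as a block, and the call held in 4 of 12 fits with 1 library left out, those without tumour anti-PD-1 replicate 2, spleen IgG replicate 1 or spleen anti-PD-1 replicate 1 or 2. The difference was -1.63 under IgG and -1.65 under anti-PD-1. In the spleen *Stt3a* was at 1.44 from T0, and in the tumour at -0.19. *Stt3b*, the paralogue that glycosylates sites skipped by the first enzyme, had means of 0.53 and 0.55 (difference -0.01, adjusted p = 0.992).

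In the list of 27 genes that assemble the dolichol-linked glycan and transfer it, *Stt3a* was the only gene called, and 4 were lower at an unadjusted p under 0.05 with 0 higher, against 0.192% of all genes called lower, and 1.49% lower and 6.11% higher at that p. The other members of these 4 were *Dpm2* (-1.06, limma adjusted p = 0.282), *Dpm3* (-1.07, adjusted p = 0.504) and *Rpn2* (-0.92, adjusted p = 0.504). *Dpm2* and *Dpm3* belong to the synthase of dolichol phosphate mannose, and like *Stt3a* they had spleen values above 0, with means of 1.66 and 1.48 against 0.60 and 0.40 in the tumour. *Rpn2* is a subunit of the oligosaccharyltransferase and was below 0 in both organs, at -1.90 and -0.98. The median of the list was -0.10, and *Dad1*, another subunit, had a difference of -0.02. Without spleen anti-PD-1 replicate 2, *Dpm3* also passed the threshold (-1.42, adjusted p = 0.0295). Of 13 alternative settings that left out no library, *Dpm2* passed in 2. These were centring on the nontargeting mean (-1.36, limma adjusted p = 0.0472) and a trended, robust variance prior (-1.06, limma adjusted p = 0.0440). The 31 genes of N-glycan trimming and branching had 0 called and a median of 0.41, or of 0.23 without spleen anti-PD-1 replicate 2. At an unadjusted p under 0.05, 4 of them were higher (12.9%), against 6.11% of all genes. Among them *Man2a2*, a mannosidase (1.51), and *Mgat4b*, a branching enzyme (1.45), had the largest differences, with adjusted p-values of 0.598 and 0.366. For *Man2a2* the difference was 0.66 without spleen anti-PD-1 replicate 2.

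*Slc6a6*, which imports taurine, had the largest difference above 0 after *Nans*. Its gene value ranged from -0.79 to 0.72 (median -0.09) in the tumour and from -3.83 to -0.73 (median -2.31) in the spleen, with a narrow overlap. The difference was 2.11 ± 0.45 (SE, limma adjusted p = 0.0744), with 5 of 5 sgRNAs and 6 of 6 pairs higher in the tumour. In the tumour it stood at -0.39 from T0 and in the spleen at -2.49. Its adjusted p was 0.0274 without spleen anti-PD-1 replicate 2 (difference 1.67) and 0.0312 without spleen anti-PD-1 replicate 1 (difference 2.36). Of 13 alternative settings that left out no library, *Slc6a6* passed the threshold in 5, such as the values as deposited (limma adjusted p = 0.0267). *Slc25a3*, the mitochondrial phosphate carrier, was the opposite case. It ranged from -5.34 to -3.004 in the tumour and from -2.87 to -1.68 in the spleen, without overlap, and the difference was -1.63 ± 0.35 (SE, adjusted p = 0.0744). It passed the threshold without spleen anti-PD-1 replicate 2 (-1.49, adjusted p = 0.0450) or spleen IgG replicate 2 (-1.83, adjusted p = 0.0352). It also passed in 4 of those 13 settings, such as centring on the nontargeting mean (-1.93, limma adjusted p = 0.0163). *Slc7a5*, which imports large neutral amino acids, had a difference of -1.27 ± 0.45 (SE, adjusted p = 0.504), and *Slc3a2*, its partner chain, one of -0.90 (adjusted p = 0.616). In the list of 28 amino acid transporters 0 genes were called.

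The other genes with large differences in at least 4 of 5 sgRNAs did not pass the threshold. On the higher side these were *Kmt2a*, a histone methyltransferase (1.67, limma adjusted p = 0.282), *Pold2*, a DNA polymerase subunit (1.65, adjusted p = 0.284), *Atp5l*, an ATP synthase subunit (1.58, adjusted p = 0.366), and *Hs6st2*, a heparan sulphate sulphotransferase (1.43, adjusted p = 0.504). In the spleen 12 of 30 values of *Kmt2a*, 17 of *Pold2* and 12 of *Atp5l* were undetected, against 0, 4 and 1 in the tumour. *Pold2* passed the threshold without spleen anti-PD-1 replicate 1 (2.01, adjusted p = 0.0389) but not without spleen anti-PD-1 replicate 2 (1.37, adjusted p = 0.265). Without replicate 2 the differences of *Kmt2a*, *Atp5l* and *Hs6st2* were 1.60, 1.20 and 1.18. On the lower side was *Eprs*, an aminoacyl-tRNA synthetase (-1.28, adjusted p = 0.598). It was far below the controls in either organ, with a tumour mean of -4.73 and a spleen mean of -3.45.

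Outside these pathways few genes separated the organs, and 34 of the 37 lists had 0 genes called in either direction. Genes that all dividing cells use were scarce in both organs, with T0 differences of -5.44 in the tumour and -5.91 in the spleen as the median of 20 ribosomal proteins, and of -4.65 and -4.77 for 26 RNA polymerase subunits. Their median differences between organs were 0.19 and 0.21. In the ribosomal list 292 and 395 of 600 values were undetected in tumour and spleen, so that a further loss could hardly be seen. The 38 genes of respiratory complex I had a median of 0.29, and the 15 of the ATP synthase 0.10. The 19 genes of fatty acid oxidation had a median of 0.49, with 17 of 19 above 0 and 0 called, against 75.5% above 0 over all genes. *Etfa*, an electron carrier of this pathway, had the largest difference there (1.15, limma adjusted p = 0.418), and its tumour libraries lay above its spleen libraries. Without spleen anti-PD-1 replicate 2 the median was 0.26 for fatty acid oxidation, -0.0036 for complex I and 0.22 for the ATP synthase, against 0.13 over all genes. Centred on the nontargeting mean, these medians were 0.19, -0.0089 and -0.20, against -0.04 over all genes. In the 80 cytochrome P450 genes, which T cells mostly do not use, the median was 0.30, near that of all genes, and 0.16 without that library.

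A further 7 genes, taken from the study's account of the screen and its lists of hits, did not pass the threshold between these organs. *Pik3cd*, the catalytic subunit of PI3K delta, was above the controls in both, with a gene value of 0.95 to 3.24 in the tumour (mean 2.18) and of 2.61 to 4.07 in the spleen (mean 3.25). All 5 sgRNAs and 6 of 6 pairs were lower in the tumour, but the difference of -1.08 ± 0.34 (SE) did not pass the threshold (limma adjusted p = 0.366). *Pik3r1*, its regulatory partner (-0.57, adjusted p = 0.598), and *B3gnt2*, which extends lactosamine chains (-0.58, adjusted p = 0.598), had tumour means of 1.66 and 1.67 and spleen means of 2.24 and 2.25. *Dgkz*, a diacylglycerol kinase that limits T cell receptor signalling, had means of 1.36 and 1.56 (difference -0.20, adjusted p = 0.834). *Elovl1*, an elongase of very long-chain fatty acids, was near the controls, at -0.18 and 0.26 (difference -0.44, adjusted p = 0.726). *Rpl9* and *Polr1d*, which all dividing cells use, were at -6.39 and -4.84 in the tumour and at -6.85 and -5.08 in the spleen.

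Within each treatment, 3 tumour libraries were compared with 3 spleen libraries. Under IgG 0 genes were called in either direction, with 106 genes at an unadjusted p under 0.05 (5.10%), and under anti-PD-1 0 were called, with 169 (8.13%). The test of whether the tumour minus spleen difference depended on treatment called 0 genes in limma, with 56 at an unadjusted p under 0.05 (2.69%). Of the 5 called genes, *Nans*, *Pgk1*, *Cops8* and *Stt3a* differed between treatments by -0.34, -0.03, -0.27 and -0.02. *Cops4* had a difference of -1.45 under IgG and of -2.63 under anti-PD-1, whose dependence on treatment had an adjusted p of 0.986. Large estimates of this dependence belonged to *Plcb3*, a phospholipase C (3.17 ± 1.37 SE), and *Kyat1*, which acts on kynurenine (2.81). In the other direction they belonged to *Cyc1*, cytochrome c1 (-2.81), *Mvd* of the mevalonate pathway (-2.70) and *Polr2e*, an RNA polymerase subunit (-2.63). None of these 5 passed the threshold. Spleen anti-PD-1 replicate 2 had the lowest spleen value of *Plcb3* (-5.27) and *Kyat1* (-3.88). The remaining spleen libraries ranged from -1.19 to 0.63 for *Plcb3* and from -1.71 to 0.36 for *Kyat1*. Estimates of the dependence without that library are not given here.

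The other organs of the screen gave context for the 5 called genes, without a test. Means are over 6 lung, 5 peritoneal and 3 liver libraries. The peritoneal libraries include the one whose tissue label is spleen, which had the lowest peritoneal value of *Cops8* (-1.41) and of *Stt3a* (-1.56). *Nans* had a mean of -4.14 in the lung, -2.73 in peritoneal metastases and -1.001 in the liver, so that its spleen value was near that of the lung. In the lung 10.55% to 42.59% of sgRNAs per library were undetected, and the part of this in the lung means was not tested. *Pgk1* had means of -5.39, -4.83 and -3.79, each below its spleen mean of -2.10. *Cops4* had means of -1.98, -2.86 and -0.71. The spleen values of *Cops8* (1.59) and *Stt3a* (1.33) were above the means of these 3 organs, which were 0.58, 0.01 and 0.25 for *Cops8* and 0.21, -0.91 and 0.09 for *Stt3a*. In draining and nondraining lymph nodes, the lymphoid organs beside the spleen, 45.4% to 91.6% of sgRNAs per library were undetected, against 4.60% to 24.1% in the spleen, so that levels centred on the nontargeting median are not on a like scale. *Nans* had means of 1.33 in draining and 0.13 in nondraining nodes, and *Pgk1* had means of 4.26 and 3.35. *Cops4* was at 1.75 and 2.04, *Cops8* at 3.21 and 3.86 and *Stt3a* at 1.62 and 2.05, and no comparison of the nodes with the spleen was made.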

How the data were processed

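The authors deposited 1 table of normalised signal per sgRNA for 10640 sgRNAs. Per their methods, sgRNAs were amplified from genomic DNA and sequenced in 3 independent runs. Counts were then made with MAGeCK and normalised to the 250 nontargeting sgRNAs, and ComBat was applied to batch effects between organs. The deposited signal is not a whole count, so depth per library, counting error and intervals could not be computed. No genome build is named for the screen in the sources used here, and no sgRNA sequences of this library were used. All value columns were assigned to a sample, and 2 samples were left out because they have no column.

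Signal was transformed as log2(signal + 1), averaged over the sgRNAs of each gene and centred on the nontargeting median of the library. Of the 2078 gene symbols, 2039 matched the RefSeq table and 33 more matched an older symbol. Tumour and spleen were compared with limma 3.58.1 in R 4.3.3, with organ and treatment as terms in the 12 libraries, empirical Bayes moderation (prior degrees of freedom 7.56, residual degrees of freedom 9) and Benjamini-Hochberg adjustment over all genes. No filter was applied. A second fit with 4 groups gave the difference within each treatment and its dependence on treatment. Library measures were compared with exact permutation tests over 924 arrangements, adjusted over 4 measures. The scripts were tested on simulated data. Tables and plots were made with Python 3.11.15, pandas 2.3.3 and matplotlib 3.10.9.

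A value was read as undetected where an sgRNA's lowest value was shared by several libraries of 1 replicate number within a relative tolerance of 1e-09. Tumour and spleen libraries of the same number and treatment deviated together from their group means, with correlations across genes of 0.124 to 0.199 in the 6 pairs. For different numbers they were -0.138 to -0.043. Deviations from a group mean sum to 0 over its 3 libraries, so these negative values follow in part from the pairs and are no separate contrast. Across treatments, same-numbered libraries correlated at -0.136 to -0.056. The pairs within treatment were therefore used as a block beside the calls. Alternatives covered the pseudocount, the sgRNA summary, centring, low values, blocks, library weights, the variance prior, the libraries in the fit and leaving out each library.

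Genes were named by a rule, namely those past the threshold with at least 4 of 5 sgRNAs in 1 direction, then the largest differences with that support to 12 in each direction, up to 4 members of each list, the 3 largest dependences on treatment each way, and 7 genes taken from the study's account of the screen and its lists of hits. Other pathway members were named to complete a pathway. Some genes that the rule selects are not reported here. The members and lists were chosen with earlier results of these data known. The lists for the COP9 signalosome and for sialic acid and core 1 O-glycans were added after values had been seen.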

Additional observations from a re-analysis of the deposited data

Results flagged for a closer look

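In 102 groups of 6 libraries, made of each of 46 named genes and 5 library measures in either organ, 8 had 1 library far from the other 5 by Dixon's test (gap over range above 0.625). Chance alone flags about 1 group in 20. In the spleen, anti-PD-1 replicate 2 was the distant library 3 times. Its median gene value was -1.14 (gap over range 0.795), its *Man2a2* value -5.75 (0.743) and its *Elovl1* value -1.20 (0.736). Spleen IgG replicate 3 was distant for *Rpn2*, at -2.32 (0.658). In the tumour, IgG replicate 3 was distant for *Slc7a5* at -5.67 (0.675), and IgG replicate 2 for *Cmas* at -3.80 (0.686). Tumour anti-PD-1 replicate 3 was distant for *Elovl1* at 1.02 (0.661), and anti-PD-1 replicate 2 for *Cad* at -1.54 (0.657).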

How the results depend on the processing

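The count of genes called higher, 1, became 2 with log2(signal + 10), 3 with the median of the sgRNAs, 2 with the values as deposited, 2 with libraries centred on all sgRNAs, 2 on the nontargeting mean, 4 with library weights, and 0 with the lowest 10% of sgRNAs left out (104 at an unadjusted p under 0.05 in limma). The count called lower, 4, became 8 with log2(signal + 10), 1 with the values as deposited, 8 on the nontargeting mean, 2 with the lowest 10% left out and 9 with library weights. A fit on all libraries called 0 and 0, with 13 and 7 at an unadjusted p under 0.05. Adding the peritoneal library whose tissue label is spleen also gave 0 and 0 (146 and 22). With the replicate number as a block 1 was higher and 3 were lower, and with the pairs within treatment as a replicate block 1 and 1. Leaving out each library gave 1 to 5 higher and 1 to 12 lower, and the largest counts came without spleen anti-PD-1 replicate 2. Under IgG, leaving out libraries gave 0 to 1 higher. Under anti-PD-1 it gave 0 to 11 higher, with 11 without spleen anti-PD-1 replicate 1, and 0 to 1 lower, and log2(signal + 10) gave 1 lower. The median of the sgRNAs gave 1 gene dependent on treatment. The share of genes above 0 was 75.5%, and 46.4% on the nontargeting mean, 62.4% with log2(signal + 10), 54.7% with the median of the sgRNAs, 86.9% as deposited and 64.9% with library weights. The causes of these shifts were not tested.

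The called genes kept their direction in every fit. *Nans* also missed the threshold in the fit on all libraries (adjusted p = 0.912) and with the peritoneal library added (2.23, adjusted p = 0.0674). *Pgk1* missed it in the fit on all libraries (adjusted p = 0.9996) and with that library (-2.08, adjusted p = 0.152). Signs changed for some named genes near 0, none of which was called. *Rpl9* was at -0.049 and *Polr1d* at -0.16 with log2(signal + 10), and *Polr1d* at -0.059 on the nontargeting mean and -0.0044 to 0.69 when libraries were left out. *Gpx1* was at -0.013 with library weights. *Cops6* was at -0.35 with log2(signal + 10), -0.20 on the nontargeting mean, -1.27 with the lowest 10% left out, -0.16 with the peritoneal library and -0.13 to 0.64 when libraries were left out. *Tpi1* was at 0.60 with the median, 0.12 with the lowest 10% left out and -0.64 to 0.14 when libraries were left out. *Stt3b* was at 0.45 with the median, 0.16 as deposited, 0.023 with shared lowest values set to 0, 0.026 with library weights, 0.012 with the peritoneal library and -0.29 to 0.14 when libraries were left out.

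Both library measures that passed the exact test, the undetected share and the nontargeting SD, kept their side of the threshold when each library was left out. With 6 libraries per organ, unknown depth and up to 24.1% of sgRNAs undetected, differences of genes near the lowest value have little precision.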

Other observations

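The tumour libraries lay entirely above the spleen libraries for 8 genes besides *Nans*, none of which was called, and they were named after their values had been seen. *Etfa* is given above. *Adcy7*, an adenylate cyclase (1.17), *Synj2*, a phosphoinositide phosphatase (1.21), *Sphk2*, a sphingosine kinase (0.76), and *Dgat1*, which makes triglycerides (0.60), belong to signalling and lipid metabolism. *Slc28a1*, a nucleoside transporter (1.11), *Gnpda2*, which acts on glucosamine phosphate (0.94), and *Cyp2b23* (1.03) complete the group. Besides the called genes and *Slc25a3*, *Aldoart1*, an aldolase copy (-0.59), lay entirely below.

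A library titled as peritoneal metastases under anti-PD-1 carries the tissue label spleen and was kept out of the comparison. Its gene values were -2.82 for *Nans*, -4.58 for *Pgk1*, -3.52 for *Cops4*, -1.41 for *Cops8* and -1.56 for *Stt3a*. For *Nans* this was above every spleen library, and for the other 4 below every spleen library. The other 2 libraries titled as peritoneal metastases under anti-PD-1 had -4.90 and -3.46 for *Nans*, -6.95 and -4.49 for *Pgk1*, -3.54 and -2.85 for *Cops4*, 0.12 and 0.15 for *Cops8* and 0.02 and -0.91 for *Stt3a*.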
